A study of Mus musculus with 6 samples.

Results

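Tmem176a, Tmem176b and 7 genes of the Ms4a family (Ms4a1, Ms4a2, Ms4a4c, Ms4a6b, Ms4a6c, Ms4a6d and Ms4a7) are described here, 9 of the 18193 genes named on the array. The members were chosen by symbol and by their log2 differences between the genotypes on these same arrays. Their differences between genotypes are therefore given as a description, with no p-value. The arrays held 19 probe sets annotated to 1 of these symbols alone, and the probe set of highest 6-array mean led each gene. Of the 9 genes, 7 reached the minimum for testing, a log2 intensity of 4 on at least 3 arrays, among 10302 genes that did.

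Expression was measured on 6 Affymetrix arrays, 3 of cells from Gata3-/- mouse embryonic stem cells, which carry no intact copy of the transcription factor gene Gata3, and 3 of cells from Gata3+/- stem cells, which keep 1. Both kinds of stem cell were grown on OP9 and OP9-DL1 stroma with IL-7 and Flt3L, and the sorted progeny is labelled as T-cell progenitors. Each array is called a biological replicate, but no label tells whether cultures or clones were separate, so the errors below rest on arrays, not on known separate cultures. Levels are log2 GC-RMA intensities, with SD over the 3 arrays of a genotype. A difference subtracts the Gata3+/- mean from the Gata3-/- mean, and limma supplied its standard error (SE). That SE uses a variance moderated across all probe sets, so it is not the spread of a gene's own arrays alone.

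Gata3 itself, read by 1 probe set, had log2 levels of 5.87, 6.44 and 5.48 on the arrays labelled Gata3-/-, against 5.39, 6.40 and 5.86 on those labelled Gata3+/-. The genotypes overlapped (difference 0.05, SE 0.34, limma adjusted p = 0.954), so this probe set does not show the labelled genotypes. Whether its probes lie in the deleted part of the gene is not known here, and every genotype below is the one on the label. The label of the cells was also set against their markers. Among the 16 genes of the T lineage with a probe set, 13 did not reach the minimum for testing, among them the receptor chains Cd3d, Cd3e and Cd3g. Genes of the OP9 stroma, such as collagens, were spread widely within each genotype. Their mean log2 level over 13 measured genes was 8.18, 7.13 and 9.24 on Gata3-/- arrays 1, 2 and 3, against 9.29, 7.74 and 9.36 on Gata3+/- arrays 1, 2 and 3, lowest on array 2 of each genotype. In a sorted population measured as a whole, fewer cells of a type and less RNA per cell cannot be told apart.

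Tmem176a and Tmem176b encode small tetraspanning membrane proteins of intracellular compartments. They are known from dendritic cells, where the rat form of Tmem176b was described as a mark of the immature state, and from lymphoid cells that express the nuclear receptor ROR gamma t. The Ms4a genes encode tetraspanning proteins of a related fold that lie side by side on mouse chromosome 19. Ms4a1 encodes CD20, the surface antigen of B cells, and Ms4a2 the beta chain of the high-affinity IgE receptor of mast cells and basophils. Ms4a7 is known from tissue macrophages, and the Ms4a6 genes are expressed in myeloid cells, Ms4a6b in T cells as well.

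Both Tmem176 genes were lower on every Gata3-/- array than on any Gata3+/- array, while Ms4a6b, Ms4a6d and Ms4a4c overlapped between the genotypes. Tmem176b differed by -2.04 and Tmem176a by -1.64, equal to levels 4.10-fold and 3.12-fold higher in Gata3+/- arrays. Ms4a7 differed by -1.23 and Ms4a6c by -0.28, also without overlap. Ms4a1 and Ms4a2 were not measurable in either genotype.

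**Figure D1:**
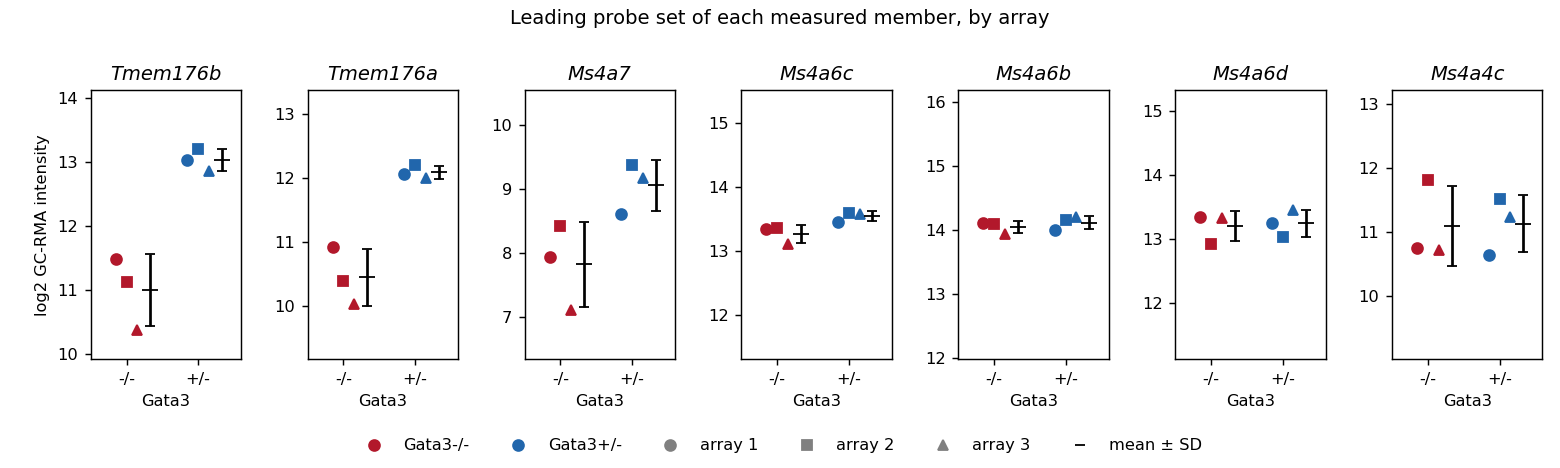
Log2 GC-RMA intensity (y axis) of the leading probe set of the 7 measured genes, Gata3-/- arrays in red left of Gata3+/- arrays in blue, with the array number as the symbol and the mean ± SD (n = 3) in black; every panel spans the same number of log2 units. The genotypes are apart for Tmem176b, Tmem176a, Ms4a7 and Ms4a6c and overlap for the other 3 genes.

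On chromosome 6 the Tmem176 genes stand head to head. In the RefSeq promoter table of build GRCm38.p6, which lists 3 starts for Tmem176b on the minus strand and 2 for Tmem176a on the plus strand, the starts of the pair lie 109 to 668 bases apart. The first listed starts are 346 bases apart, a distance within which 8.50% of the 13572 plus-strand genes in that table have a minus-strand start upstream. Their 300-base windows, 250 bases before to 50 after each start, share 155 bases. Both windows are shown because the genes were low on the same arrays; capitals mark the shared bases, which read as reverse complements of each other. The Tmem176a window is chr6:48841233-48841532 on the plus strand and the Tmem176b window chr6:48841088-48841387 on the minus strand.
Tmem176a: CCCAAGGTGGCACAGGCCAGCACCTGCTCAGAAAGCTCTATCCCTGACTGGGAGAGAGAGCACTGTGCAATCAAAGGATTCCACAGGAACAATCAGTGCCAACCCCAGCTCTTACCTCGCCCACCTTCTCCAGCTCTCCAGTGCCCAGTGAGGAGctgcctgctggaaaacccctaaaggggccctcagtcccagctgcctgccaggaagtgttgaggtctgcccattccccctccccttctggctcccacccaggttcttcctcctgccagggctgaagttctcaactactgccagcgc
Tmem176b: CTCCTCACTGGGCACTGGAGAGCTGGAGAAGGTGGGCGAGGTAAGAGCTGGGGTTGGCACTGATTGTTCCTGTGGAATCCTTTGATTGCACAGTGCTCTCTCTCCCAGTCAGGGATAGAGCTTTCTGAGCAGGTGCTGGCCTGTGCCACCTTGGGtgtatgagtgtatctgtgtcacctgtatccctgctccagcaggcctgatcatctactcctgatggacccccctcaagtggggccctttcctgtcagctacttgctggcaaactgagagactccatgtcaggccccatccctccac

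The windows held few CpG pairs. The CpG count, observed over expected, was 0.08 for Tmem176a and 0.04 for Tmem176b, against a median of 0.39 over 27025 windows, although their GC content of 59.7% and 56.7% was above the median of 52.7%. Of the 7 motifs searched on both strands, only the E box CANNTG and the PU.1 and ETS motif GAGGAA were found in the pair. CANNTG occurred in both windows and in 72.1% of all windows, and GAGGAA in the Tmem176a window and in 28.3% of all. AGATAA, the motif of GATA factors, was in neither, which says only that these letters are not in these windows.

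Tmem176b, read by 1 probe set, stood at 11.50, 11.14 and 10.38 on Gata3-/- arrays 1, 2 and 3, against 13.04, 13.22 and 12.87 on Gata3+/- arrays 1, 2 and 3. All Gata3-/- arrays lay below all Gata3+/- arrays, and the Gata3-/- arrays were the more spread, with 11.01 ± 0.57 on Gata3-/- and 13.04 ± 0.17 on Gata3+/- arrays (SD). The difference of -2.04 (SE 0.29) had rank 16 from the lowest among the 10302 genes.

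Tmem176a was read by 3 probe sets. The leading one stood at 10.92, 10.40 and 10.04 on the Gata3-/- arrays and at 12.06, 12.21 and 12.01 on the Gata3+/- arrays, a difference of -1.64 (SE 0.23) and rank 30. Its other probe sets differed by -1.84 (SE 0.25) and -1.78 (SE 0.35). The last value comes from a probe set with the suffix _x_at, which marks probes that can also match other transcripts. On all 4 Tmem176 probe sets the genotypes did not overlap, Gata3-/- array 1 was the highest of its genotype and Gata3-/- array 3 the lowest.

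Ms4a7 was the member of its family with the lowest difference. It stood at 7.93, 8.43 and 7.11 on Gata3-/- arrays 1, 2 and 3, against 8.61, 9.38 and 9.17 on the Gata3+/- arrays. The genotypes were apart by a small margin, since Gata3-/- array 2 and Gata3+/- array 1 differed by less than the SD of either genotype. The difference was -1.23 (SE 0.38), rank 85 of 10302, equal to a level 2.35-fold higher in Gata3+/- arrays. A further Ms4a7 probe set stayed under the minimum on all arrays.

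The 3 Ms4a6 genes were close between genotypes. Ms4a6c stood at 13.35, 13.35 and 13.10 on Gata3-/- arrays, against 13.45, 13.59 and 13.58 on Gata3+/- arrays, lower throughout by a mean of -0.28 (SE 0.10). Ms4a6b stood at 14.10, 14.09 and 13.93 on Gata3-/- arrays, against 13.99, 14.15 and 14.19 on Gata3+/- arrays, with overlap and a difference of -0.07 (SE 0.09). Its other probe set differed by 0.13 (SE 0.09), so the sign for Ms4a6b depended on the probe set. Ms4a6d stood at 13.35, 12.93 and 13.33 on Gata3-/- arrays, against 13.25, 13.04 and 13.45 on Gata3+/- arrays, a difference of -0.04 (SE 0.16). Array 2 was the lowest of each genotype. These values come from a probe set with the suffix _s_at, for probes shared with other transcripts. The other tested Ms4a6d probe set, without such a suffix, differed by -0.07 (SE 0.15).

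Ms4a4c overlapped between the genotypes. It stood at 10.74, 11.81 and 10.72 on Gata3-/- arrays 1, 2 and 3, against 10.64, 11.51 and 11.24 on the Gata3+/- arrays, highest on array 2 of each genotype and different by -0.04 (SE 0.37). Both of its probe sets carry suffixes for shared probes (_s_at and _x_at), so signal from close relatives cannot be set apart from it. The arrays numbered 2 are also those with the lowest OP9 stroma level, and the part of the stroma in this pattern was not tested. Without both arrays numbered 2 the differences were -2.01 for Tmem176b, -1.56 for Tmem176a, -1.37 for Ms4a7, -0.29 for Ms4a6c and -0.21 for Ms4a4c.

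Ms4a1 and Ms4a2 had 4 probe sets in all, with log2 values from 1.85 to 3.39, under the minimum on every array. Fcer1a, the alpha chain that binds IgE, was also under the minimum on all arrays, whereas Fcer1g, the gamma chain shared with other Fc receptors, averaged 13.69 ± 0.00 on Gata3-/- arrays, against 13.81 ± 0.05 on Gata3+/- arrays.

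The window of Ms4a2, chr19:11623670-11623969 on the minus strand of GRCm38.p6, is shown because it was the only 1 of 7 member windows with the GATA motif AGATAA. Capitals mark its 3 matches on either strand. The motif was present in 11.4% of all windows, and Ms4a2 was not measurable under either label.
Ms4a2: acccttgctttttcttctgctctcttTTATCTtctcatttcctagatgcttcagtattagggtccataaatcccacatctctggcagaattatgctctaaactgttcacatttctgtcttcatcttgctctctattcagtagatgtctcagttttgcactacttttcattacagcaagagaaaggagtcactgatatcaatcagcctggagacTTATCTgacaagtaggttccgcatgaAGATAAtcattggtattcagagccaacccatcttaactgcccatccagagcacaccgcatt

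**Figure D2:**
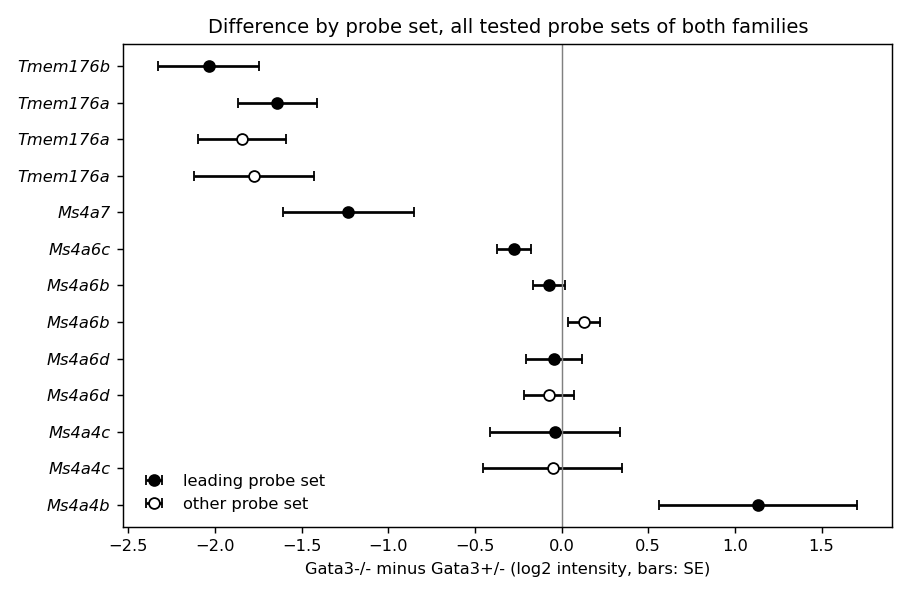
Gata3-/- minus Gata3+/- difference in log2 intensity (x axis, bars are SE from limma) for the 13 tested probe sets of both families, filled for the leading probe set of a gene and open for others. The 4 Tmem176 probe sets lie between -2.04 and -1.64, and those of Ms4a6b lie on both sides of 0.

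In the fit across all probe sets, 2 of the 7 measured members (Tmem176a and Tmem176b) had a limma adjusted p under 0.05, both lower in Gata3-/- arrays, against 5.27% of all genes tested in either direction, 2.41% lower and 2.86% higher. Over single probe sets the share called was 4.37%. Groups that did not overlap, lower in Gata3-/-, were seen for 4 members and for 16.7% of all genes. The mean difference was below 0 for all 7 measured members and for 53.3% of all genes, with medians of -0.28 and -0.02. Because the contrast helped to choose the members, nothing is read from these counts. The limma calls of both Tmem176 genes were absent whenever an array was left out: 0 members and 0 to 4 of 10302 genes were called in those 6 fits. An unadjusted limma p under 0.05 was seen there for 2 to 4 of 7 members and for 2043 to 2484 of 10302 genes. Without a filter on low values 0 members were called by limma as well. In that fit 4 of 9 members and 3007 of 18193 genes had an unadjusted p under 0.05. Nothing is read from these member counts either.

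Along chromosome 19, measurable expression of Ms4a genes was seen only within a stretch. RefSeq lists 21 Ms4a genes there, of which 17 had a probe set annotated to them alone and 6 were measured. In the order of the Ms4a genes alone, the 6 fell within 8 successive ones from Ms4a7 to Ms4a6d. Genes of other families between them were not looked for. Ms4a5 and Ms4a14, next to Ms4a7 in this order, had no probe set, so the edge on that side is not known. In that stretch 6 of 7 genes with a probe set were measured and Ms4a4d was not, while outside it 0 of 10 were, including Ms4a1 on one flank and Ms4a2 and Ms4a3 on the other. The highest genotype mean among those 10 genes was 3.16. Genes under the minimum on the array may still be expressed below what it can show.

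**Figure D3:**
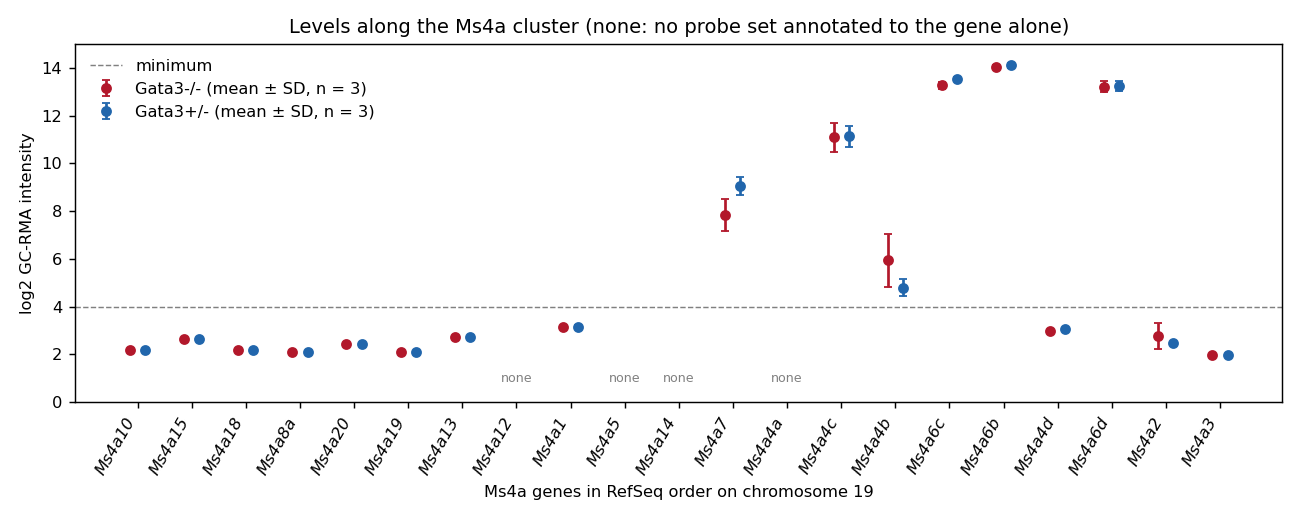
Mean log2 GC-RMA intensity (y axis, bars are SD, n = 3) of the leading probe set of each Ms4a gene in RefSeq order along chromosome 19 (x axis), Gata3-/- in red left of Gata3+/- in blue, with the minimum of 4 as a dashed line. The measured genes lie between Ms4a7 and Ms4a6d, and the 10 genes with a probe set outside that stretch have means up to 3.16.

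Among the 10 other Ms4a genes on the array, Ms4a4b alone was measured. Ms4a4b, known from T cells, stood at 5.41, 7.23 and 5.17 on Gata3-/- arrays, against 4.70, 5.20 and 4.51 on Gata3+/- arrays, a difference of 1.13 (SE 0.57) that did not pass with limma. Like Ms4a4c it was highest on array 2 of each genotype. Its second probe set was under the minimum on all arrays.

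The promoter windows of the measured stretch hold runs of identical bases. Among the 153 pairs of 18 Ms4a windows, the longest run of identical bases was 48, between Ms4a6c and Ms4a6b, and the next was 20, between Ms4a4c and Ms4a4b. The other 151 pairs shared at most 13, and the median was 8. These windows are printed with the shared run in capitals because their genes are the close relatives among the measured Ms4a genes. In GRCm38.p6 the windows are chr19:11469118-11469417 for Ms4a6c, chr19:11518309-11518608 for Ms4a6b, chr19:11407411-11407710 for Ms4a4c and chr19:11443308-11443607 for Ms4a4b, all on the plus strand.
Ms4a6c: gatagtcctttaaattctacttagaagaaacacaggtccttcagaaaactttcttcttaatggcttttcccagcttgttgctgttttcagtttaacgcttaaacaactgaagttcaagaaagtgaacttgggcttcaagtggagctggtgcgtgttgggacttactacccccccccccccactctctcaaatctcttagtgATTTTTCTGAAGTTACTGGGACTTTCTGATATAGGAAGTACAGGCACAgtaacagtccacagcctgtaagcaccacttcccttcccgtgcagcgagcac
Ms4a6b: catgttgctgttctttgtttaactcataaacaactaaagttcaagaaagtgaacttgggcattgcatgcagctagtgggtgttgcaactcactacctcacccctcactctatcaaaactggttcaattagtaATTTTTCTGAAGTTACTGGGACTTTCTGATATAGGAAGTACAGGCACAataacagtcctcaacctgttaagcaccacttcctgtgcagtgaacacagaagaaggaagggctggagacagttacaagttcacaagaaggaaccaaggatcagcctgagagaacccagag
Ms4a4c: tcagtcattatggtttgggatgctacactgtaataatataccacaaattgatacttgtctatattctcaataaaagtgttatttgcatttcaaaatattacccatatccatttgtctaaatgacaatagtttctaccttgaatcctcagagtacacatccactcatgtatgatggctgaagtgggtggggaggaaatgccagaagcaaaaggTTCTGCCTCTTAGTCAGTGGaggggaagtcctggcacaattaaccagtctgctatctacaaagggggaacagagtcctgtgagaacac
Ms4a4b: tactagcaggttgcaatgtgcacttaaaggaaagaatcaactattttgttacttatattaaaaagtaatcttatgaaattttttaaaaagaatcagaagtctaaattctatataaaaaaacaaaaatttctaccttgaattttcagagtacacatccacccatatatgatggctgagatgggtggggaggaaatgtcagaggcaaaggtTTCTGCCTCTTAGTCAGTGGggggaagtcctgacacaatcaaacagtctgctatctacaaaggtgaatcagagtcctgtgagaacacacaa

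Of the other motifs searched, the PU.1 and ETS motif GAGGAA was found in 3 of 7 member windows (Tmem176a, Ms4a7 and Ms4a4c) and the E box CANNTG in 4 (both Tmem176 genes, Ms4a4c and Ms4a6c). The ETS and IRF composite (2.79% of all windows), the interferon response motif (3.49%), the AP-1 motif TGANTCA (7.93%) and the nuclear receptor motif AGGTCA (16% of all windows) were in 0 of 7. The composite and the interferon motif can overlap each other and GAGGAA. Ms4a1 and Ms4a6d had no entry in the table.

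Members also differed in how they varied among arrays of 1 genotype. After each genotype's mean was taken off, Tmem176a and Tmem176b kept the same order of arrays in large part (Pearson r = 0.95 over 6 arrays). So did Ms4a7 and Ms4a6c (r = 0.95) and Ms4a6b and Ms4a6c (r = 0.93), whereas Ms4a4c and Ms4a6d ran opposite (r = -0.74) and Tmem176a and Ms4a4c showed no common order (r = 0.01). These are descriptions over 6 arrays that share their genotype means, their normalization and the deviation of the arrays numbered 2.

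The genes most like Tmem176b were found by Pearson's r of log2 values over the 6 arrays, among 1893 other genes with a range of at least 1. Tmem176a came first (r = 0.995). It was followed by Prkcb, a protein kinase C of lymphoid and myeloid cells (r = 0.995), Slco2b1, an organic anion transporter (r = 0.991), Bcl6, a transcriptional repressor (r = 0.990), and Gatm, an enzyme of creatine synthesis (r = 0.988). Prkcb averaged 10.51 ± 0.28 on Gata3-/- arrays, against 11.33 ± 0.12 on Gata3+/- arrays. Gatm averaged 10.02 ± 0.36 on Gata3-/- arrays, against 11.70 ± 0.20 on Gata3+/- arrays. The arrays form 2 genotype groups, so an r over all 6 mixes the gap between genotypes with the order within them. Genes chosen by this r therefore tend to differ between genotypes by choice, and no p-value is given for them. Ms4a7 was further off, at place 129 (r = 0.891).

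For Ms4a7 the closest were Slc25a53, a mitochondrial carrier gene (r = 0.985), Zc3h12d, a zinc finger ribonuclease gene of immune cells (r = 0.978), Spon1, a secreted matrix protein (r = 0.977), Mn1, a transcriptional coregulator (r = 0.977), and Aplnr, the apelin receptor (r = 0.975). Spon1 averaged 5.61 ± 0.81 on Gata3-/- arrays, against 8.08 ± 0.87 on Gata3+/- arrays.

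The surroundings of the Tmem176 pair gave no call. Of the 10 nearest tested genes, 5 on each side, none passed with limma (adjusted p 0.0687 to 0.874). They had a median difference of 0.10, with 3 below 0 and 7 above. Among them the Gimap genes, GTPases of lymphocytes, were Gimap1 with 0.29 (SE 0.15), Gimap6 with 0.16 (SE 0.12) and Gimap9 with 0.56 (SE 0.21). Zfp775 had 0.82 (SE 0.19) and Repin1 -0.14 (SE 0.12), both zinc finger genes. On the other side Gpnmb, a glycoprotein of macrophages, had 1.02 (SE 1.70), Malsu1 0.03, Igf2bp3, an RNA-binding protein of fetal cells, -0.47 (SE 0.11), Tra2a 0.04 and Ccdc126 -0.18. Over 25 genes on each side the median was -0.08, with 32 below 0, 18 above and 0 called. On the whole of chromosome 6 without the pair, 515 genes had a median of 0.00, with 35 called higher and 6 lower. Of all genes tested, 2.86% were called higher and 2.41% lower. The pair was thus opposite to most calls of its chromosome. Its 10 nearest genes were mostly above 0 and the 50 nearest mostly below, with 0 called.

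Near the Ms4a cluster, 1 of the 10 nearest tested genes passed. Mpeg1, a pore-forming protein of macrophages, averaged 13.10 ± 0.15 on Gata3-/- arrays, against 13.76 ± 0.10 on Gata3+/- arrays (difference -0.66, SE 0.11, limma adjusted p = 0.0383). Cd5, a surface receptor of T and B cells, had a difference of 1.44 (SE 0.35, limma adjusted p = 0.0764) and Slc15a3, a lysosomal peptide transporter, of 0.40 (SE 0.20). Ccdc86, Prpf19 and Tmem109 on that side had -0.23, -0.07 and -0.24. Beyond the other end Mrpl16, Stx3, Patl1 and Osbp had -0.22, 0.66, 0.04 and -0.06. The median of the 10 was -0.06, and that of 25 genes on each side -0.08, with 1 called higher and 2 lower.

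**Figure D4:**
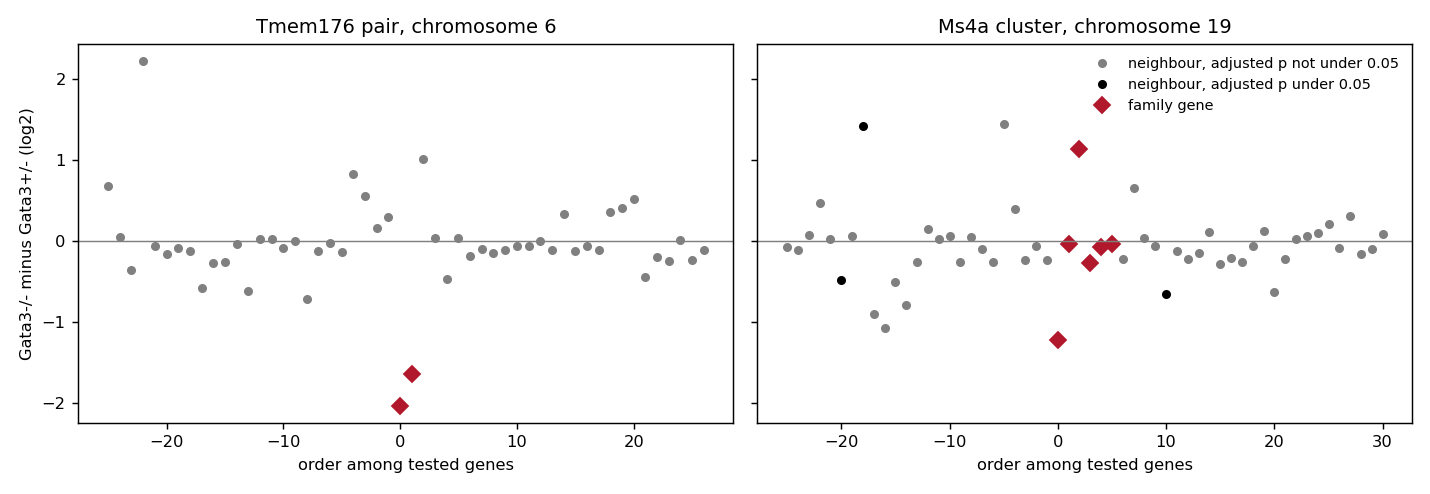
Gata3-/- minus Gata3+/- difference in log2 intensity (y axis) of the Tmem176 pair (left panel) and the 6 measured Ms4a genes (right panel), as red diamonds, and of 25 tested genes on each side in chromosome order (x axis). The pair lies below its neighbours, whose differences run from -0.72 to 2.22, and the Ms4a genes lie on both sides of 0.

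Genes of the cell types in which these families are known were read from 7 lists, in which 6 of 72 genes were called higher and 7 lower, against 2.86% higher and 2.41% lower of all genes tested. Siglech and Cd28, counted among those called lower, reached the minimum for testing only through their Gata3+/- arrays. Leaving out any 1 array, or both arrays numbered 2, left 0 of the 72 list genes called by limma. In those fits 29 to 35 of the 72 had an unadjusted p under 0.05, against 2037 to 2484 of 10302 genes tested. Of 20 measured macrophage and monocyte genes, 3 were lower, 0 higher and 17 did not pass, with a median of -0.41 against -0.02 for all genes. Ccr2, a chemokine receptor of monocytes, differed by -1.79 (SE 0.24, limma adjusted p = 0.0342), Cx3cr1, the fractalkine receptor, by -0.83 (SE 0.11, adjusted p = 0.0323) and Fcgr1, the high-affinity IgG receptor, by -0.70 (SE 0.12, adjusted p = 0.0431). The summed intensity of the 20 genes was 153295 to 183906 on Gata3-/- arrays and 211091 to 233201 on Gata3+/- arrays. Of the 20, 18 had a mean difference below 0 and 2 above, against 53.3% of all genes below 0. Trem2 differed by -2.46 (SE 0.47), Mrc1 by -1.84 (SE 0.55) and Cd68 by 0.53 (SE 0.10), each without overlap, but none passed. Cd163, Folr2 and Lyve1, markers of resident macrophages, were under the minimum on all arrays. Other macrophage genes of the list, among them Adgre1, C1qb, C1qc and Mertk, were above the minimum on all 6 arrays. The part of these cells in the levels of Ms4a7, Ms4a6c and the Tmem176 genes was not tested.

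Of 18 measured genes of dendritic cells and MHC class II, 3 were higher, 2 lower and 13 did not pass, with a median of 0.34. The costimulatory ligands Cd80 and Cd86, which rise as dendritic cells mature, were higher. Cd80 stood at 9.66, 9.79 and 10.09 on Gata3-/- arrays, against 8.56, 7.90 and 8.12 on Gata3+/- arrays (difference 1.65, SE 0.20, limma adjusted p = 0.0306). Cd86 differed by 1.15 (SE 0.18, adjusted p = 0.0377) and Zbtb46, a factor of conventional dendritic cells, by 1.89 (SE 0.35, adjusted p = 0.0485). Siglech, a receptor of plasmacytoid dendritic cells, was under the minimum on all Gata3-/- arrays and at least 16.4-fold lower. It entered the fit only through its Gata3+/- arrays, so no p-value is given for it. Irf8, a transcription factor of dendritic cells and monocytes, was lower by a difference of -0.67 (SE 0.11, limma adjusted p = 0.0383). Batf3, a factor of conventional dendritic cells, had a difference of -0.78 (SE 0.19) without overlap, which did not pass (limma adjusted p = 0.0759). The mean log2 level of the 18 genes was 10.12 to 10.43 on Gata3-/- arrays and 9.63 to 9.96 on Gata3+/- arrays. Their summed intensity was 74430 to 92701 on Gata3-/- arrays and 51807 to 57265 on Gata3+/- arrays, with a large share from Ccr7, a chemokine receptor, which did not pass (difference 2.42, SE 0.69, limma adjusted p = 0.108). Without Ccr7 the sum of the other 17 genes was 53278 to 63538 on Gata3-/- arrays and 43042 to 50234 on Gata3+/- arrays. The MHC class II genes H2-Aa, H2-Ab1 and H2-Eb1, and Ciita, overlapped between the genotypes, with differences of 0.13, 0.20, 0.23 and 0.05. Cd74 had a difference of 0.46 (SE 0.16) without overlap, and none of these genes passed with limma. Xcr1 and Cd209a were under the minimum throughout. The part of these cells in the Tmem176 difference was not tested.

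Of 7 measured B-cell genes, 1 was higher, 1 lower and 5 did not pass, with a median of -0.33. Cd37, a tetraspanin of leukocytes, differed by 0.85 (SE 0.14, limma adjusted p = 0.0395) and Cd72, an inhibitory receptor, by -1.25 (SE 0.15, adjusted p = 0.0289). The other 7 B-cell genes on the array, among them Cd79a and Pax5, were under the minimum, as was Ms4a1. Of 7 measured IgE receptor and mast cell genes, Kit, the receptor for stem cell factor, was higher by 0.96 (SE 0.18, adjusted p = 0.0477) and 6 did not pass, with a median of 0.19. Of 4 measured genes of ROR gamma t lymphoid cells, Ahr, a ligand-activated transcription factor, was higher by 0.73 (SE 0.10, adjusted p = 0.0344) and 3 did not pass, with a median of 0.37. Il17a was under the minimum on all arrays.

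Of 3 measured T-lineage genes, 2 did not pass. Tox differed by -1.60 (SE 0.84) with overlap between the genotypes, and Lat by -0.85 (SE 0.29) without overlap. The list's median of -1.60 is the value of Tox alone. The remaining gene, Cd28, a costimulatory receptor, was under the minimum on all Gata3-/- arrays and at least 2.32-fold lower. Cd28 entered the fit only through its Gata3+/- arrays, so no p-value is given for it. None of 13 OP9 stroma genes passed with limma, and their median was -0.66. The 2 named by the highest mean, Col1a2 and Acta2, had differences of -0.68 (SE 0.92) and -0.66 (SE 0.82), within the spread between arrays. The summed intensity of the 13 genes was 4535 to 18878 on Gata3-/- arrays and 5730 to 19415 on Gata3+/- arrays, which overlap.

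**Figure D5:**
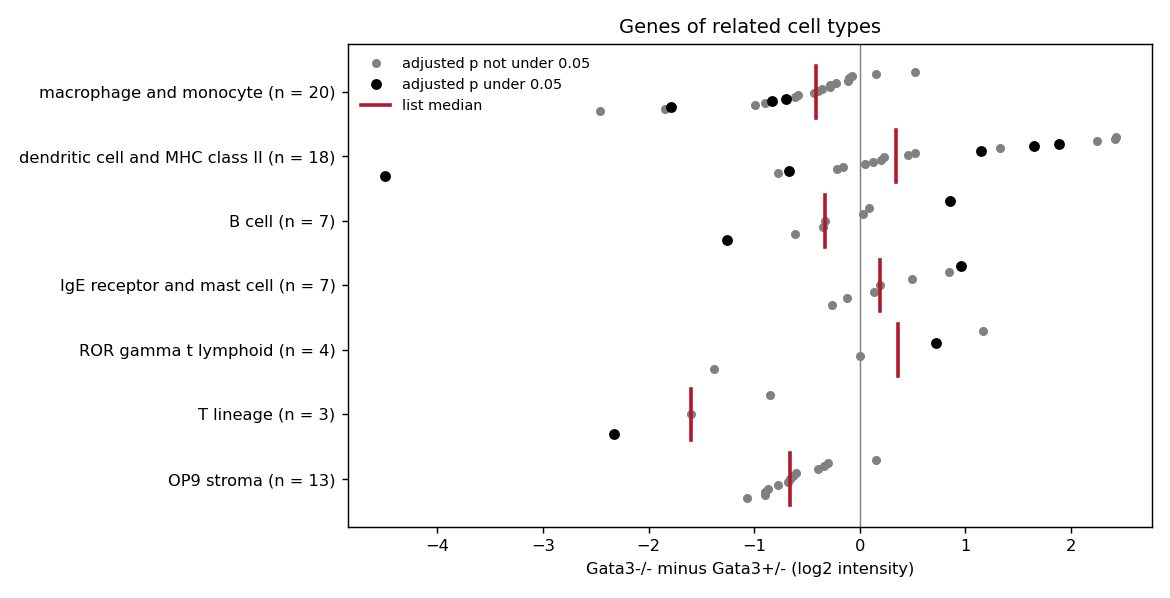
Gata3-/- minus Gata3+/- difference in log2 intensity (x axis) of each measured gene in 7 lists of related cell types, black where the limma adjusted p is under 0.05 and grey otherwise, with the list's median as a red bar. Macrophage and monocyte genes have a median of -0.41 and those of dendritic cells and MHC class II a median of 0.34.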

How the data were processed

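The authors deposited linear GC-RMA intensities for 45101 probe sets on 6 arrays, per the labels' descriptions; GC-RMA corrects background from probe sequence and normalizes between arrays. The submitters' processing notes name GCOS with no version, and settings are not stated. The array medians of the deposited intensity lay between 8.57 and 8.93, and low values form a floor, so the number of arrays and the floor limit the precision.

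Here log2 was taken with no further normalization, and 64 control probe sets were left out. GEO's platform table gave 34958 probe sets 1 symbol and 932 several, and 9211 were not listed; 34754 of those with 1 symbol matched the RefSeq gene table of GRCm38.p6, which gave chromosomes and gene order, and 0 symbols changed. The 20102 probe sets with log2 of at least 4 on at least 3 arrays entered a two-sided limma fit (lmFit, eBayes; limma 3.58.1, R 4.3.3), with Benjamini-Hochberg adjustment over all of them and a threshold of 0.05. A fold against a genotype under the minimum on all arrays is a lower bound against that minimum. Plots used matplotlib 3.10.9 under Python 3.11.15. Promoter sequences are RefSeq's, build GRCm38.p6; 7 of 9 members matched, and the first window listed for a gene was used.

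The members, lists and tests were chosen with earlier results of these data known. The named genes are the members, other measured Ms4a genes, up to 4 called genes of each list by size (or the 2 of highest mean), the 5 nearest tested genes on each side and the 5 most alike. Fcer1a, Fcer1g, Irf8, Batf3, Ccr7, H2-Aa, H2-Ab1, H2-Eb1, Ciita, Cd74 and the list genes under the minimum were named after their values were seen. The same holds for Trem2, Mrc1, Cd68, Adgre1, C1qb, C1qc, Mertk, Tox and Lat. On simulated data for this comparison over 20102 probe sets, limma recovered 56% of 100 probe sets changed by a log2 value of 1 and 81% of 100 changed by 2, with 9 false calls among 146; probe sets were drawn independently there.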

Additional observations from a re-analysis of the deposited data

How the results depend on the processing

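Counts of genes with a limma adjusted p under 0.05 moved with the processing. Against 543 genes, 2 members and 13 genes of the lists, no filter gave 98, 0 and 0. Without that filter 4 members, 37 list genes and 3007 of all 18193 genes had an unadjusted limma p under 0.05. A variance trend with robust eBayes gave 824 genes, array weights 1224 and the replicate block 298, each with 2 members called. Leaving out 1 array gave 0 to 4 genes, 0 members and 0 genes of the lists. Leaving out both arrays numbered 2, an alternative chosen after seeing the data, gave 3, 0 and 0. In that fit 3 members and 2037 of 10302 genes had an unadjusted p under 0.05. Both kinds of fit rest on fewer arrays. The counts stayed within 1.5 times with quantile normalization, with median centring, with a filter raised to log2 6 and with probe sets averaged per gene.

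Over these 15 alternatives the difference lay from -2.28 to -1.73 for Tmem176b, -1.87 to -1.43 for Tmem176a, -1.53 to -0.87 for Ms4a7 and -0.32 to -0.19 for Ms4a6c. It took both signs for Ms4a4c (-0.40 to 0.15), Ms4a6b (-0.13 to 0.03) and Ms4a6d (-0.15 to 0.09). The deviations of same-numbered arrays correlated at 0.005, 0.695 and 0.429 for numbers 1, 2 and 3, and those of Gata3-/- array 3 with Gata3+/- array 1 at 0.424, so the numbers were not taken as pairs.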
